A study of Bos taurus with 14 samples.

Results

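Adrenomedullin (ADM) and vascular endothelial growth factor A (VEGFA) were measured in Bos taurus granulocytes and bovine endometrial stromal cells (BES) on 14 Agilent microarrays of 1 colour. The probes were ABR197 for ADM and every probe whose annotation in the scanner files names VEGFA, which gave ABR7085 and ABR7080, so that 3 of the 15208 non-control probes on each array represent these 2 of the 6739 genes that could be named. The 4 groups were granulocytes with interferon tau (IFNT, 4 arrays), granulocytes with phosphate-buffered saline (PBS, 4 arrays), BES with IFNT (3 arrays) and BES with PBS (3 arrays). Per the labels, IFNT was given at 1 mg/mL and every sample was incubated for 2 h. That concentration is unusually high for interferon treatment of cells, and its unit could not be checked here. The labels name no animal, culture passage or cell isolation step, so errors and p-values measure the spread between these arrays and no more, and that spread may be technical.

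Adrenomedullin is a secreted vasodilator peptide that also acts on endothelial cells and leukocytes through the calcitonin receptor-like receptor combined with a receptor activity-modifying protein. VEGFA is the main growth factor for endothelial cells and signals through the tyrosine kinase receptors FLT1 and KDR, with neuropilins as co-receptors. Both genes are known targets of the hypoxia-inducible factors (HIF), and both are known for roles in the growth and permeability of vessels in the uterus. IFNT is the type I interferon by which the ruminant conceptus signals its presence to the mother, and granulocytes and endometrial stromal cells are among the maternal cells that meet it.

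The sequence of ABR7085 is shown because this VEGFA probe had the larger change of the pair with IFNT. It is the 60-base oligonucleotide as the deposited files give it, in lower case.
ABR7085: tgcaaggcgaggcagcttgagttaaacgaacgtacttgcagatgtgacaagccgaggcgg
Its GC content was 55.0%, against 45.0% for ABR7080 and 45.0% for ABR197. The VEGFA probes share no run of bases longer than 5, so they sample different stretches of the message. The longest run that ABR7085 shares with any other probe of the array is 12 bases, and for ABR7080 and ABR197 it is 13 bases. The annotation names ABR7085 as vascular endothelial growth factor A and ABR7080 as vascular endothelial growth factor. The files state no genome build, and no position of a probe is given here.

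Levels are log2 of the background-corrected signal minus log2 of the 75th percentile of the same array, so that 0 marks the brightness of that percentile. The 75th percentile was an intensity of 1009 to 1491 on the granulocyte arrays and of 2564 to 3173 on the BES arrays, and 66.4% to 70.9% and 71.6% to 76.1% of their probes were well above background. All 3 probes were well above background on all 14 arrays, and none was saturated or marked as a faulty spot. All granulocyte arrays lay on 1 slide and all BES arrays on another. On the granulocyte slide the IFNT samples filled array row 2 and the PBS samples array row 1, so array row and treatment cannot be told apart in granulocytes. On the BES slide all IFNT samples and PBS sample 3 lay in array row 2, and PBS samples 1 and 2 in array row 1.

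The interferon treatment itself was visible in both cell types. Of 57 listed interferon-stimulated genes, 27 had a tested probe in granulocytes, and 27 of them rose with a median log2 change of 2.39. In BES 25 were tested, of which 21 rose and 4 did not pass the test, with a median of 3.04. Over all genes tested the medians were -0.05 in granulocytes and -0.03 in BES, and 18.2% and 2.26% of genes rose past the threshold. Cell type markers were checked against the labels. All 12 neutrophil markers with a probe were above background on every granulocyte array, with a summed signal of 841 to 922 times the 75th percentile with IFNT and 821 to 1030 with PBS, against under 1 in BES. All 15 stromal markers were above background on every BES array, with sums of 334 to 344 with IFNT and 326 to 333 with PBS. Part of this list was also present in granulocytes, where 8 of the 15 were above background on every IFNT array and 7 on every PBS array, with sums of 91.3 to 96.9 with IFNT and 85.0 to 91.0 with PBS. TIMP2, an inhibitor of matrix metalloproteinases, was higher in granulocytes than in BES after scaling, with mean log2 levels of 6.09 against 5.08 with IFNT and 5.97 against 5.03 with PBS. The collagens COL1A2 and COL3A1 with LUM, PDGFRA and FBN1 were above background on no granulocyte array, and COL3A1 had a mean log2 level of 6.27 in BES with IFNT and 6.15 in BES with PBS. BES also carried epithelial signal. Of 9 epithelial markers with a probe, 7 were above background on every BES array, with sums of 251 to 255 with IFNT and 244 to 275 with PBS. Mean log2 levels in BES with IFNT and with PBS were 7.24 and 7.19 for KRT8, 5.83 and 5.95 for KRT19, and 5.09 and 5.22 for CLDN3. EPCAM and ESR1 were above background on no BES array. In granulocytes the epithelial sums were 21.3 to 26.0 with IFNT and 19.2 to 29.0 with PBS, and CLDN3 was at 4.18 and 4.16.

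ADM rose 20.5-fold in granulocytes with IFNT and VEGFA fell by both of its probes, while neither gene passed the test in BES. In granulocytes with IFNT, ADM had an intensity of 3178, 3092, 2698 and 2803 in samples 1 to 4, which gave log2 levels of 1.41, 1.26, 1.19 and 1.26. In granulocytes with PBS the intensities were 113.7, 178.6, 142.5 and 181.3, and the log2 levels were -3.15, -3.04, -3.09 and -3.04. The groups lay far apart, and the gap between the lowest IFNT array and the highest PBS array was many times the spread within either group. The mean log2 level was 1.28 ± 0.090 with IFNT and -3.08 ± 0.052 with PBS (SD, n = 4 each). The log2 change was 4.36 ± 0.057 (SE), a 20.5-fold rise with a 95% confidence interval of 18.8-fold to 22.5-fold and an adjusted p of 4.4e-10 in limma. On the log2 scale that interval was 4.23 to 4.49. Over 18 alternatives in processing and samples the log2 change ran from 3.85 to 4.39, so the interval does not cover the choice of processing. In the exact permutation test, two-sided over 70 arrangements of the 8 arrays, p was 0.0286, the smallest this design can give. Of the 10379 probes tested in granulocytes, 44.6% passed the threshold of an adjusted p of 0.05, 17.2% as rises and 27.4% as falls, and in 43.6% the groups did not overlap. Passing the test was therefore common, and what set ADM apart was its size, which ranked 9 among the rises of all probes. In bulk RNA of this kind, fewer cells that carry a transcript and less of it per cell cannot be told apart.

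**Figure D1:**
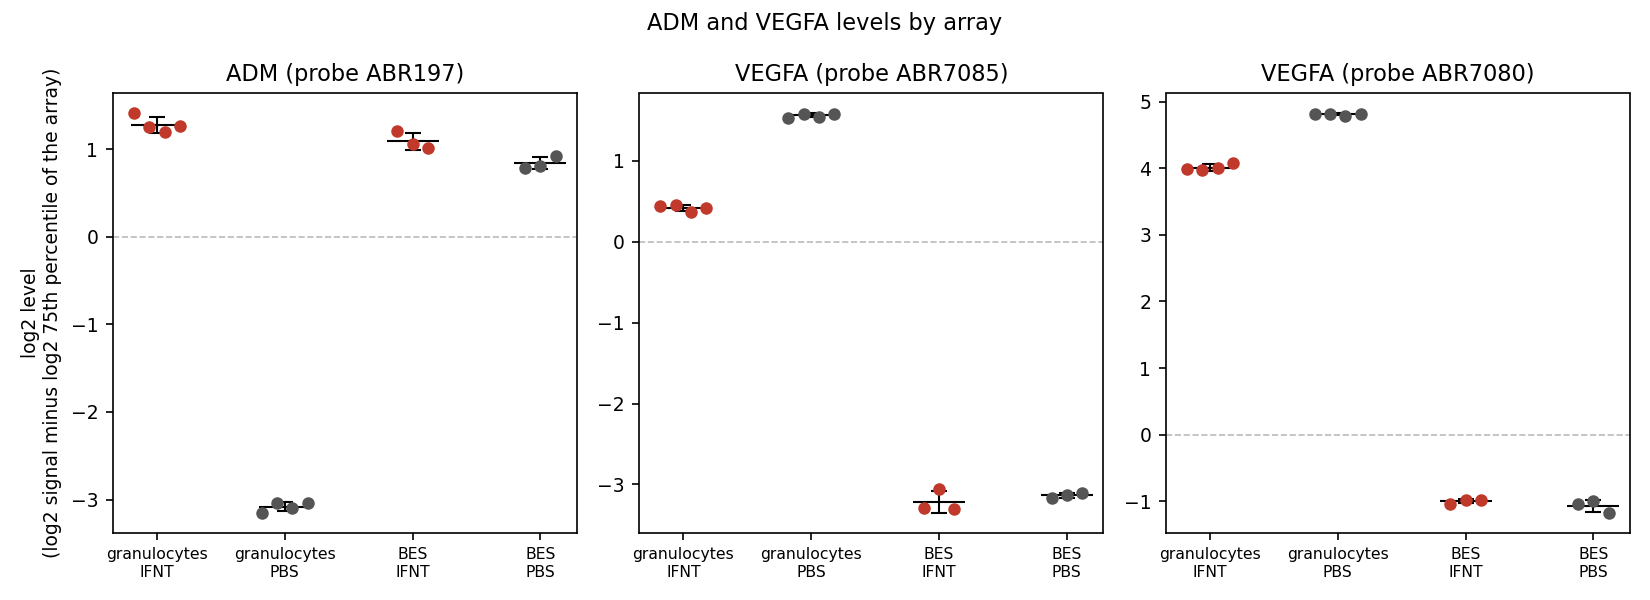
Log2 level (signal over the 75th percentile of the array) of ADM and of the VEGFA probes on each of the 14 arrays, with IFNT arrays in red and PBS arrays in grey. Horizontal bars are group means and error bars are 1 SD; ADM in granulocytes stood at 1.19 to 1.41 with IFNT and at -3.15 to -3.04 with PBS, and in granulocytes both VEGFA probes were lower with IFNT on every array.

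VEGFA moved the other way in the same granulocytes. Probe ABR7085 had intensities of 1624, 1775, 1524 and 1568 with IFNT, against 2930, 4415, 3554 and 4461 with PBS. Its log2 levels were 0.44, 0.46, 0.37 and 0.42 with IFNT and 1.54, 1.59, 1.55 and 1.58 with PBS. Every IFNT array was below every PBS array, both in intensity and in log2 level. The log2 change was -1.14 ± 0.041 (SE), a 2.21-fold fall, with an adjusted p of 1e-07 in limma, and it was the 65th largest fall among the probes tested. Probe ABR7080 had intensities of 19049, 20240, 18852 and 19764 with IFNT and of 28517, 41402, 33486 and 41741 with PBS. The log2 levels were 3.99, 3.97, 4.00 and 4.08 with IFNT and 4.82, 4.81, 4.79 and 4.81 with PBS. These groups did not overlap either, with every IFNT array between 3.97 and 4.08 and every PBS array between 4.79 and 4.82. The log2 change was -0.80 ± 0.042 (SE), a 1.74-fold fall, with an adjusted p of 1.3e-06 in limma, and 189 probes fell at least as far. For each VEGFA probe the exact permutation test gave p = 0.0286, again the smallest possible.

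The VEGFA probes differed in how far they fell. The level of ABR7085 minus that of ABR7080 averaged -3.59 ± 0.067 with IFNT and -3.24 ± 0.027 with PBS (SD, n = 4 each) in granulocytes. It ranged from -3.66 to -3.51 with IFNT and from -3.28 to -3.23 with PBS, so the ranges were apart. The fall of ABR7085 exceeded that of ABR7080 by 0.34 on the log2 scale, written as a change of -0.34 (exact permutation test, two-sided, p = 0.0286, the smallest possible). In BES the same quantity was -2.22 ± 0.122 with IFNT and -2.07 ± 0.117 with PBS (SD, n = 3 each), and the change of -0.15 gave p = 0.3 in the exact permutation test. This comparison between the probes was chosen after their values had been seen. Both probes were lower with IFNT in granulocytes.

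In BES, ADM was already bright without IFNT. Its intensities were 6580, 6476 and 5937 with IFNT and 5474, 4497 and 5831 with PBS, and the log2 levels were 1.20, 1.06 and 1.02 with IFNT and 0.79, 0.81 and 0.92 with PBS. Every IFNT array was higher than every PBS array, as was the case in one direction or the other for 33.5% of the 11309 probes tested in BES. The log2 change was 0.25 ± 0.066 (SE), or 1.19-fold with a 95% confidence interval of 1.07-fold to 1.33-fold, and the adjusted p in limma was 0.0931, so ADM did not pass the test in BES, where 3.66% of probes did, 2.29% as rises and 1.37% as falls. With an intensity trend and a robust prior the adjusted p was 0.0266 in limma, past the threshold at an unchanged log2 change. In 16 of 17 alternatives ADM stayed short of the threshold. Over all 17 its log2 change was 0.17 to 0.29, with adjusted p-values of 0.0266 to 0.572 in limma. The exact permutation test gave p = 0.1, the smallest possible with 3 arrays against 3.

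VEGFA showed no change past the threshold in BES by either probe. ABR7085 had log2 levels of -3.29, -3.06 and -3.30 with IFNT and of -3.17, -3.13 and -3.10 with PBS, with intensities of 293 to 373 and of 292 to 359. ABR7080 had log2 levels of -1.04, -0.97 and -0.98 with IFNT and of -1.05, -0.99 and -1.17 with PBS, with intensities of 1394 to 1582 and of 1291 to 1536. The groups overlapped for both probes. The log2 changes were -0.08 ± 0.074 for ABR7085 (adjusted p = 0.527 in limma) and 0.07 ± 0.060 for ABR7080 (adjusted p = 0.475 in limma). Their 95% confidence intervals were -0.26 to 0.10 and -0.07 to 0.22, which hold neither of the granulocyte changes.

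The difference between the cell types was tested directly, as the granulocyte change minus the BES change over all 14 arrays. It was 4.11 ± 0.089 (SE) on the log2 scale for ADM (adjusted p = 2.5e-11 in limma) and ranked 7 among the positive differences of 12046 probes. It was -1.06 ± 0.079 for ABR7085 (adjusted p = 1.2e-06 in limma) and -0.87 ± 0.068 for ABR7080 (adjusted p = 1.8e-06 in limma). Across all probes 26.5% passed this test, 11.7% with a positive and 14.8% with a negative difference. Slide and cell type coincide on these arrays, and a constant effect of the slide on a probe cancels in this contrast.

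**Figure D2:**
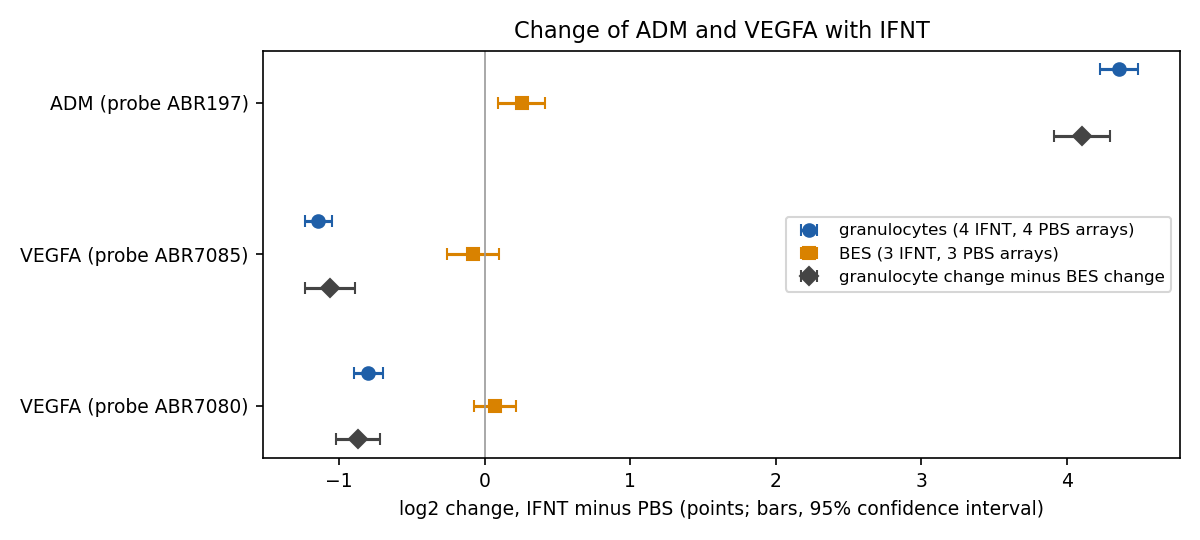
Log2 change with IFNT (IFNT minus PBS) of ADM and the VEGFA probes in granulocytes and in BES, and the granulocyte change minus the BES change, with 95% confidence intervals from limma. ADM stands at 4.36 in granulocytes and 0.25 in BES, and both VEGFA probes lie below 0 in granulocytes and near 0 in BES.

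The order of ADM levels was granulocytes with IFNT, BES with IFNT, BES with PBS and, far below, granulocytes with PBS. The mean log2 levels in that order were 1.28 ± 0.090 (n = 4), 1.09 ± 0.096 (n = 3), 0.84 ± 0.070 (n = 3) and -3.08 ± 0.052 (n = 4). Under IFNT the granulocytes ranged from 1.19 to 1.41 and the BES from 1.02 to 1.20, so these neighbours overlapped. Their log2 difference of 0.19 ± 0.063 (SE) had an adjusted p of 0.0129 in limma. It shrank to 0.04 (adjusted p = 0.61) with quantile normalization, to 0.03 (adjusted p = 0.623) with median centring and to 0.03 (adjusted p = 0.718) when the percentile was taken over probes above background on all arrays. Without BES IFNT sample 3 it was 0.15 (adjusted p = 0.0641 in limma). Before any scaling the order was the reverse, with ADM intensities of 2698 to 3178 in granulocytes and of 5937 to 6580 in BES under IFNT. Under PBS granulocytes were 15.1-fold lower than BES in ADM (log2 difference -3.92 ± 0.063, adjusted p = 4.3e-15 in limma). In this contrast 91.7% of probes passed the threshold under PBS and 92.2% under IFNT, and cell type cannot be told apart from slide in it.

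The order of VEGFA levels was granulocytes with PBS, granulocytes with IFNT, and then BES, where the treatments overlapped. Granulocytes exceeded BES under IFNT by 12.4-fold with ABR7085 and 32.1-fold with ABR7080. Under PBS they exceeded BES by 26.0-fold with ABR7085 and 58.8-fold with ABR7080. All 4 of these differences passed the threshold in limma, with adjusted p-values of 3.1e-15 and 6.1e-17 under IFNT and of 3.4e-16 and 1.6e-17 under PBS. So did 92.2% of all probes under IFNT and 91.7% under PBS, and slide and cell type coincide. The folds were larger after scaling than before it. Unscaled mean intensities with PBS were 3840 in granulocytes and 334.8 in BES for ABR7085, and 36290 and 1398 for ABR7080. With IFNT they were 1622 and 321.5, and 19480 and 1489. VEGFA thus remained well above the BES level in granulocytes after its fall, and the BES values were above background on every array.

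The wider adrenomedullin system could be read for few members. Of 17 listed peptides, receptors and processing enzymes, 6 had a named probe and 4 were tested. Of these ADM alone passed the test in granulocytes, against 44.6% of all genes tested there. None passed in BES, where 3.59% of all genes did. Without PBS sample 2 the count in granulocytes was 2, with 1 rise and 1 fall. RAMP2 is a receptor activity-modifying protein that can give the calcitonin receptor-like receptor adrenomedullin specificity. RAMP2 had mean log2 levels of 2.91 ± 0.062 with IFNT and 2.82 ± 0.080 with PBS in granulocytes (SD, n = 4 each). Its log2 change was 0.09 ± 0.056 in granulocytes (adjusted p = 0.215 in limma) and below 0.01 in size in BES (adjusted p = 0.983). PAM, the enzyme that amidates the peptide's end, changed by 0.07 ± 0.049 in granulocytes (adjusted p = 0.288 in limma) and by -0.05 ± 0.056 in BES (adjusted p = 0.616). CALCA, which encodes calcitonin and its gene-related peptide, and CALCR, the calcitonin receptor, were above background on no array.

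In the VEGF family the falls in granulocytes were not limited to VEGFA. Of 10 listed ligands and receptors, 9 had a named probe and 5 were tested in granulocytes, where none rose, 3 fell and 2 did not pass the test, with a median log2 change of -0.28. Across all genes tested in granulocytes 18.2% rose and 26.4% fell. The ligand VEGFB, which binds FLT1, averaged -1.29 ± 0.038 with IFNT and -1.01 ± 0.054 with PBS (log2 level, SD, n = 4 each), a log2 change of -0.28 ± 0.046 (SE, adjusted p = 0.00119 in limma). The receptor FLT1, by probe ABR2045, averaged -4.93 ± 0.135 with IFNT and -3.47 ± 0.133 with PBS, a log2 change of -1.46 ± 0.088 (adjusted p = 2.9e-06 in limma). The FLT1 signal was weak, with intensities of 34.4 to 43.2 with IFNT and 79.2 to 143.5 with PBS, and a second FLT1 probe, ABR7077, was above background on no granulocyte array, so the fall rests on 1 probe. With the normexp background correction the FLT1 change was -0.76 in granulocytes (adjusted p = 1.9e-06 in limma). VEGFC, the lymphatic growth factor, changed by 0.16 ± 0.087 (adjusted p = 0.162 in limma) and the co-receptor NRP2 by -0.01 ± 0.070 (adjusted p = 0.898).

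None of the 6 VEGF family genes tested in BES passed the test, where 3.59% of all genes did. VEGFB had mean log2 levels of 3.00 ± 0.041 with IFNT and 3.00 ± 0.023 with PBS in BES (SD, n = 3 each), with an adjusted p of 0.978 in limma. The log2 changes in BES were 0.07 ± 0.070 for FLT1 (adjusted p = 0.593 in limma), 0.11 ± 0.079 for VEGFC (adjusted p = 0.41) and -0.20 ± 0.075 for NRP2 (adjusted p = 0.17). Placental growth factor, PGF, was above background in BES and on no granulocyte array, and its log2 change in BES was -0.22 ± 0.085 (adjusted p = 0.179 in limma). KDR, the main signalling receptor for VEGFA, was above background on no array by probe ABR2024 and on 1 PBS granulocyte array by probe ABR1800. VEGFD was above background on no array, and FLT4, the receptor for VEGFC, on 1 PBS granulocyte array and 1 IFNT BES array. The difference between the cell types passed the test for VEGFB, at -0.28 ± 0.060 on the log2 scale (adjusted p = 0.00447 in limma), and for FLT1, at -1.52 ± 0.126 (adjusted p = 2.9e-06), or at -0.72 with normexp (adjusted p = 3.8e-05 in limma).

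Markers of endothelial cells, the usual site of FLT1 and KDR, gave a low summed signal on these arrays, but not all were absent. Of 13 endothelial markers 11 had a probe, and their summed signal was 0.644 to 0.697 times the 75th percentile in granulocytes with IFNT and 0.693 to 0.915 with PBS. It was 1.69 to 1.71 in BES with IFNT and 1.74 to 1.88 in BES with PBS. CDH5, VWF and ESAM were above background on no array. In each group 5 of the 11 were above background on every array of that group, but not the same 5. ERG was above background on every granulocyte array and on no BES array. ENG had mean log2 levels of 0.46 with IFNT and 0.55 with PBS in BES, above the 75th percentile. In granulocytes ENG was at -1.44 with IFNT and -1.63 with PBS. Monocyte and macrophage markers also gave signal on the granulocyte arrays. All 10 with a probe were tested there, 5 of them higher with IFNT and 2 lower, against 18.2% and 26.4% of all genes. Their summed signal was 128 to 142 with IFNT and 140 to 152 with PBS, led by FCN1, CD68 and CD14, and their part in the changes of ADM and VEGFA was not tested. The eosinophil markers ALOX15 and CCR3 both fell in granulocytes, with sums of 10.6 to 12.1 with IFNT and 13.7 to 14.5 with PBS. All 4 B cell markers with a probe were above background on every granulocyte array, with sums of 11.4 to 12.4 with IFNT and 10.7 to 11.3 with PBS. So were 12 of 15 T and NK cell markers, with sums of 5.35 to 5.66 and 5.43 to 5.59. The same held for 3 of 5 platelet and erythroid markers, with sums of 5.93 to 6.18 and 6.14 to 6.90. In BES with IFNT, 7 of 10 monocyte and 2 of 4 B cell markers were above background on every array. So were 5 of 15 T and NK cell and 3 of 5 platelet and erythroid markers. With PBS these BES counts were 7, 2, 4 and 2. The sums in BES with IFNT were 0.606 to 0.764, 0.457 to 0.482, 0.317 to 0.341 and 1.08 to 1.13 in that order. Whether the signal of these markers in granulocytes comes from other cells was not tested, nor was its part in the changes of ADM and VEGFA.

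Among 15 listed regulators of the hypoxia-inducible factors, 10 were tested in each cell type. None rose and 2 fell in granulocytes, and none passed the test in BES, where 3.59% of all genes did. The share that fell in granulocytes, 20%, was near the 26.4% of all genes. The falls numbered 4 without PBS sample 4, with the replicate number as a block and with quantile normalization. In BES 1 regulator fell without PBS sample 3 and 1 without IFNT sample 1. HIF1A, the oxygen-regulated subunit, had log2 changes of 0.11 ± 0.051 in granulocytes (adjusted p = 0.101 in limma) and 0.15 ± 0.080 in BES (adjusted p = 0.275). EPAS1, which encodes HIF2A, had log2 changes of 0.07 ± 0.086 in granulocytes (adjusted p = 0.532) and -0.15 ± 0.058 in BES (adjusted p = 0.182). The regulators that fell in granulocytes were ELOB, at -0.48 ± 0.061 (adjusted p = 0.00028 in limma), and RBX1, at -0.34 ± 0.051 (adjusted p = 0.00075), both parts of the VHL ubiquitin ligase that marks HIF for destruction. The RBX1 probe is named through a description as similar to the gene.

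Of 40 other HIF target genes listed, 20 were tested in granulocytes, where 3 rose, 5 fell and 12 did not pass the test, with a median log2 change of -0.08. The share that passed, 40%, was near the 44.6% of all genes tested in granulocytes. HMOX1, the inducible heme oxygenase, rose by 2.18 ± 0.166 on the log2 scale (adjusted p = 1.2e-05 in limma) and the glycolytic enzyme PFKL by 0.52 ± 0.070 (adjusted p = 0.00039). PGAM1, another glycolytic enzyme, fell by 0.85 ± 0.075 (log2 change -0.85, adjusted p = 2.9e-05 in limma). In BES 22 were tested, of which none rose and 2 fell, against 2.26% and 1.33% of all genes. These were PFKFB3, a regulator of glycolysis, at -0.54 ± 0.080 (adjusted p = 0.0211 in limma) and JMJD6, a dioxygenase, at -0.36 ± 0.059 (adjusted p = 0.0324). JMJD6 lost its call when any 1 of the 6 BES arrays was left out, with adjusted p-values of 0.0619 to 0.11. PFKFB3 lost it without PBS sample 1 or 2, or IFNT sample 2 or 3, with adjusted p-values of up to 0.0845.

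Among 45 other angiogenic and anti-angiogenic factors, 24 were tested in granulocytes, of which 2 rose, 7 fell and 15 did not pass the test. The share that passed was 37.5%, against 44.6% of all genes. CXCL10, an interferon-inducible chemokine that inhibits vessel growth and is also on the list of interferon-stimulated genes, rose by 6.32 ± 0.049 on the log2 scale (adjusted p = 3.8e-11 in limma), or by 5.69 with normexp. PLAUR, the urokinase receptor, fell by 0.95 ± 0.066 (log2 change -0.95, adjusted p = 6.9e-06 in limma) and PLAU, urokinase itself, fell by 0.55 ± 0.052 (log2 change -0.55, adjusted p = 5e-05). In BES 27 of the list were tested and 1 passed the test, or 3.7%, near the 3.59% of all genes. This was CXCL10, at 0.64 ± 0.121 (adjusted p = 0.0444 in limma). That call was lost without PBS sample 1 or 2 or any IFNT sample, with adjusted p-values of 0.0613 to 0.159.

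Among 47 other vasoactive peptides, enzymes and receptors, 17 were tested in granulocytes, of which 3 rose, none fell and 14 did not pass the test. The share that rose was 17.6%, against 18.2% of all genes. EDN1, the vasoconstrictor endothelin 1, had mean log2 levels of -2.62 ± 0.058 with IFNT and -5.05 ± 0.889 with PBS (SD, n = 4 each), a log2 change of 2.44 ± 0.378 (adjusted p = 0.00088 in limma). Its PBS level was near background, with 3 of 4 arrays well above it, and with normexp the EDN1 change was 1.25 (adjusted p = 1.6e-05 in limma). HSD11B2, the enzyme that inactivates cortisol, rose by 1.50 ± 0.105 on the log2 scale from a dim signal (adjusted p = 7.3e-06 in limma), or by 0.81 with normexp (adjusted p = 0.00046 in limma). DDAH2, which breaks down an inhibitor of nitric oxide synthesis, rose by 0.21 ± 0.058 (adjusted p = 0.0182 in limma), a call that was lost without PBS sample 2 or IFNT sample 3 or 4, with adjusted p-values of 0.0534 to 0.0565. In BES 20 were tested and 1 passed, or 5%, against 3.59% of all genes. This was EDN2, endothelin 2, at -0.48 ± 0.088 (adjusted p = 0.0413 in limma). The EDN2 call was lost without PBS sample 1 or 2 or any IFNT sample, with adjusted p-values of 0.099 to 0.129, and EDN2 was above background on no granulocyte array. With no filter on dim probes, none of the BES calls of CXCL10, PFKFB3, JMJD6 and EDN2 held, with adjusted p-values of 0.0776 to 0.131 in limma.

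**Figure D3:**
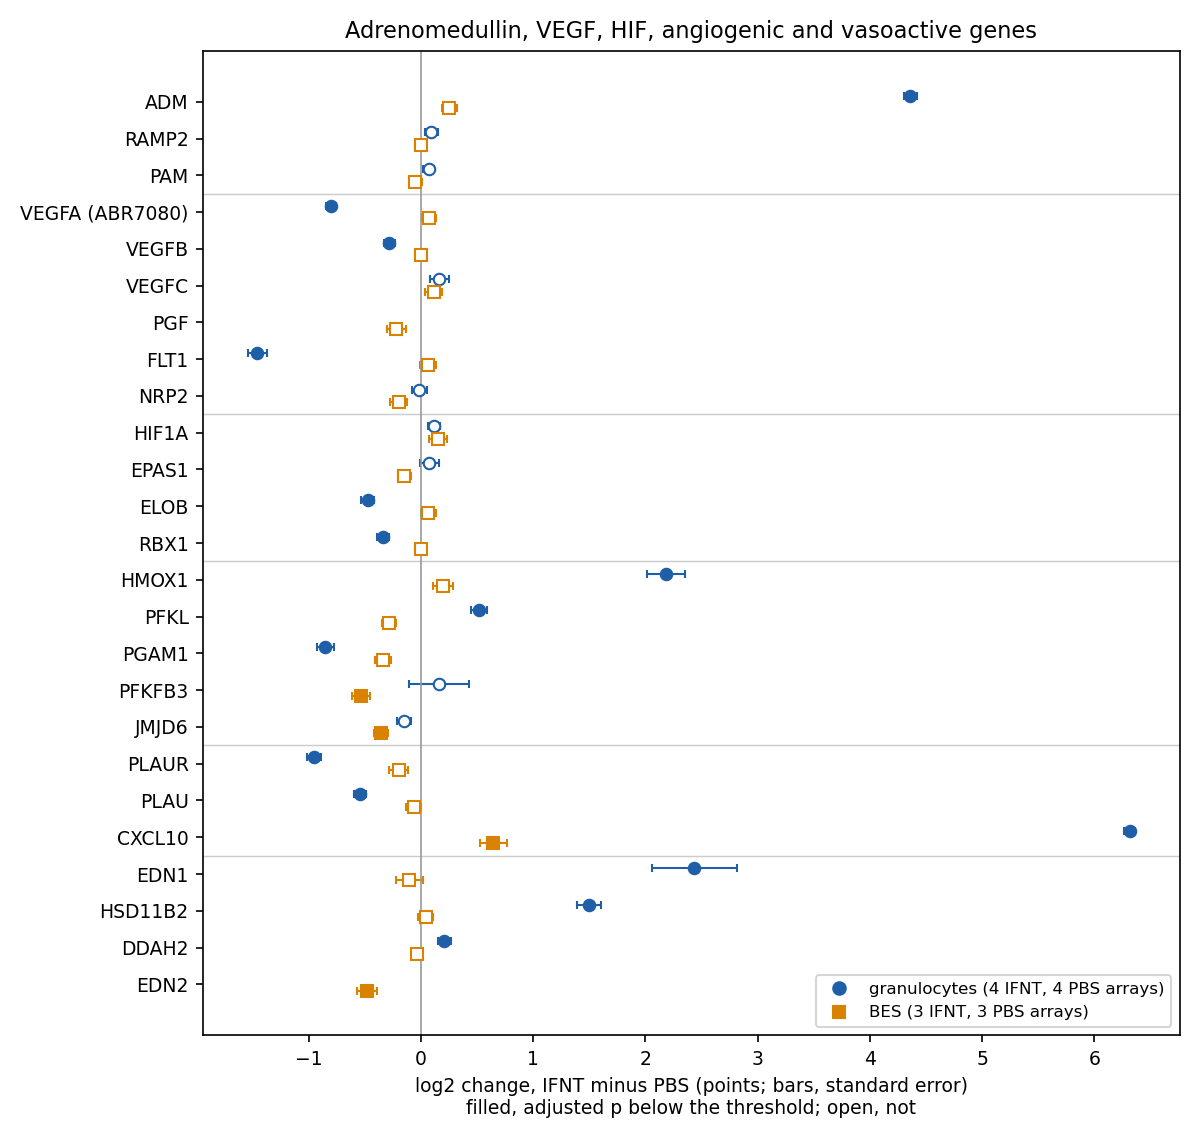
Log2 change with IFNT (points) and its standard error (bars) for ADM, VEGFA and other named genes, in granulocytes (circles) and BES (squares), filled where the adjusted p was below 0.05. Grey lines part the adrenomedullin system, the VEGF family, HIF regulators, HIF targets, other angiogenic factors and other vasoactive genes; ADM at 4.36 and CXCL10 at 6.32 stand furthest to the right in granulocytes.

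**Figure D4:**
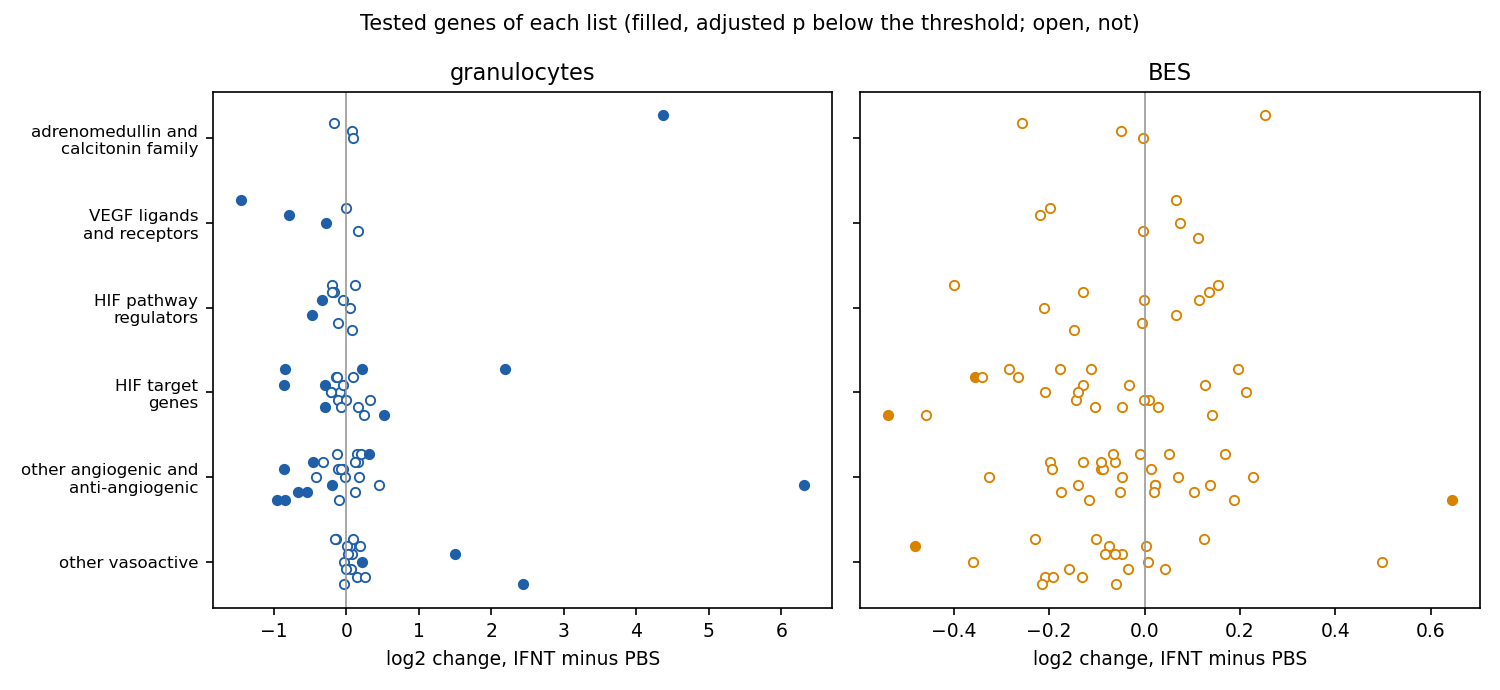
Log2 change with IFNT of every tested gene of the 6 vascular and HIF lists, 1 point a gene, in granulocytes (left) and BES (right), with separate horizontal scales. Filled points passed the threshold, and most points of each list lie near 0, with ADM alone among 4 tested genes of its list to the right in granulocytes.

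Genes whose levels followed those of ADM most closely were ranked by Pearson's r among 5666 genes over the 14 arrays and among 4978 genes over the 8 granulocyte arrays. The arrays fall into groups, so that r describes likeness of pattern and carries no test. Over the 14 arrays the closest were BAG1, a co-chaperone (r = 0.995), PARD6A, a cell polarity protein (r = 0.995), BPNT1, a nucleotide phosphatase (r = 0.994), TGM1, a transglutaminase (r = 0.988), and MUC1, a cell-surface mucin (r = 0.986). Only 3 genes exceeded an r of 0.99. In granulocytes these rose with IFNT by 2.08, 1.68, 2.04, 1.09 and 2.84 on the log2 scale. In BES MUC1 alone of them passed the test, unlike ADM, at 0.33. That call was lost without any PBS sample or IFNT sample 1 or 2, with adjusted p-values of 0.0755 to 0.159 in limma. MUC1 was well above background on all 4 IFNT arrays but on 1 of the 4 PBS arrays in granulocytes. Its change and its likeness to ADM therefore rest partly on values near background. With normexp its change in granulocytes was 1.09 and its r over the 14 arrays was 0.940. Within the granulocyte arrays the closest were NIPA2, PML, RNF8, CXCL10 and TCEAL1, each with an r above 0.999, and 187 genes exceeded 0.99. PML, an interferon-inducible nuclear body protein, rose by 2.91 in granulocytes and 1.26 in BES on the log2 scale. The names of BAG1 and PML rest on descriptions as similar to those genes.

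For VEGFA, probe ABR7080 was used in the same ranking. Over the 14 arrays the closest were MEFV, which encodes pyrin (r = 0.9998), BRF2, MED30, TNIP1, an inhibitor of inflammatory signalling, and CXCL2, a neutrophil chemoattractant, the last 4 with an r of 0.9995 to 0.9996. This closeness was shared with many genes, as 836 exceeded an r of 0.99. Within the granulocyte arrays the closest were DHRS13, MEFV, NDUFV3, BRF2 and CD81, with an r of 0.9971 to 0.9995, and 51 genes exceeded 0.99. With quantile normalization the r of CD81 was 0.952, so its place depends on the scaling. In granulocytes MEFV fell by 1.76 and CXCL2 fell by 1.09 on the log2 scale, and neither passed the test in BES, at -0.11 and -0.12. MEFV is named through a description as similar to the gene.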

How the data were processed

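Each array gave fluorescence intensity per spot in a deposited scanner file made with Agilent Feature Extraction 9.5, per the submitters' processing notes. The intensity used was the processed signal, which the authors' extraction software corrects for local background and spatial trend and replaces by a surrogate at background, per the file headers. The authors' deposited value table holds log2 values, which equalled log2 of the processed signal minus 1 constant per array, with no centring of probes and column medians of -3.42 to -3.23. That table was used as an alternative, and its scale and direction follow from this match.

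The log2 level of a probe is log2 of this signal minus log2 of the 75th percentile over the array's 15208 non-control probes. Spots marked non-uniform or as population outliers were dropped. Testing required a probe to be well above background on at least 4 granulocyte arrays or 3 BES arrays, and for contrasts over both cell types when it passed in either. The test was limma's lmFit and eBayes, two-sided (limma version 3.58.1, R version 4.3.3), with Benjamini-Hochberg adjustment over all probes tested and a threshold of 0.05. The error given with a change is the moderated standard error of limma, and single probes were also compared by exact permutation of arrays. A gene was represented by its tested probe with the highest mean level. Scripts were tested on simulated data. The number of arrays limits the precision.

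Probes were named from the files through RefSeq's bovine genes (assembly ARS-UCD2.0), by which 7076 probes received a symbol (6739 symbols), 8132 received none and 1012 of the names rest on a description as similar to a gene. The members, the lists and the naming rule were chosen with earlier results of these data known. The rule named ADM and the VEGFA probes, every tested ligand, receptor or enzyme of the adrenomedullin and VEGF lists, up to 4 members of each other vascular or HIF list per cell type with the smallest unadjusted p, up to 3 members of each marker list by level, and the 5 genes most like each member by Pearson's r. Of these, the text names those whose values bear on a result. Results for 2 named genes are not reported here, but list counts include both. Alternatives changed the background correction, normalization, filter, prior, samples in the fit, source of values, spot flags, replicate block, array row and replicates left out.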

Additional observations from a re-analysis of the deposited data

Results flagged for a closer look

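Changes with IFNT differed between granulocytes and BES for 19 of the 39 probes of named genes put to that test in limma over all 14 arrays, against 26.5% of all probes. Many of these genes were named for a small p in one cell type, which can raise the count. Each value here is the granulocyte change minus the BES change on the log2 scale, with the adjusted p of limma. The difference was 4.11 for ADM (2.5e-11), -1.06 for VEGFA by ABR7085 (1.2e-06) and -0.87 by ABR7080 (1.8e-06). In the VEGF family it was -0.28 for VEGFB (0.00447) and -1.52 for FLT1 (2.9e-06). Among HIF regulators it was -0.54 for ELOB (0.00093), -0.34 for RBX1 (0.00311) and -0.31 for CITED2, a competitor of HIF for its coactivators (0.046). HIF targets gave 1.99 for HMOX1 (4.4e-05), 0.80 for PFKL (8.9e-05), -0.51 for PGAM1 (0.00455) and 0.35 for ANKRD37 (0.0129). Angiogenic factors gave 5.67 for CXCL10 (2.7e-11), -0.76 for PLAUR (0.00029) and -0.48 for PLAU (9e-04). Vasoactive genes gave 2.54 for EDN1 (0.0025), 1.45 for HSD11B2 (1.3e-05) and 0.24 for DDAH2 (0.0293). MUC1, well above background on 1 of 4 PBS granulocyte arrays, gave 2.50 (3.2e-06). The CITED2 difference was lost with 12 of the 14 arrays left out singly and that of DDAH2 with 9 of them.

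In 8 of 100 checks of 4 granulocyte arrays, 1 array stood apart from the other 3, where chance gives about 1 in 20. With IFNT these were HIF1A at a log2 level of 1.26 in sample 4 (others 1.38 to 1.39), PFKFB3 at 2.12 in sample 3 (others 1.06 to 1.22), PFKL at 0.70 in sample 3 (others 0.84 to 0.85), CUL2 at -0.069 in sample 3 (others -0.17 to -0.16) and NIPA2 at 1.56 in sample 1 (others 1.46 to 1.47). With PBS these were VEGFC at -3.91 in sample 2 (others -3.59 to -3.55), BAG1 at -1.32 in sample 4 (others -1.64 to -1.59) and RNF8 at 0.075 in sample 3 (others 0.14 to 0.15). Neither ADM nor a VEGFA probe had such an array.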

How the results depend on the processing

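The changes of ADM and of both VEGFA probes in granulocytes, and their differences between the cell types, kept direction and side of the threshold under every alternative run. ADM in granulocytes ranged from 3.85 to 4.39 on the log2 scale, VEGFA probe ABR7085 from -1.16 to -1.11 and ABR7080 from -0.82 to -0.77. Normexp shrank the granulocyte changes of weak signals by more than 1.5 times in fold, to -0.76 for FLT1, 1.25 for EDN1, 0.81 for HSD11B2 and 1.09 for MUC1, and that of CXCL10 to 5.69, and their differences between the cell types to -0.72, 1.37, 0.79, 0.82 and 5.08, with all still past the threshold. Array row could not be fitted in granulocytes, where it coincides with treatment. In BES, ADM kept its sign, at 0.17 to 0.29, with an adjusted p of up to 0.572 in limma. It passed the threshold only with an intensity trend and robust prior, at 0.25 (adjusted p = 0.0266 in limma). ADM in granulocytes against BES under IFNT fell below the threshold with quantile normalization (0.038), median centring (0.032) and the percentile over probes above background on all arrays (0.026), and ranged from 0.145 to 0.242 with each array left out. The count of probes past the threshold in BES was 414, against 189 with no filter, 1011 with the trend and robust prior, 149 with array row as a covariate, and 183 to 534 with each array left out. For genes of the vascular and HIF lists in BES it was 4, against 0 with no filter, 13 with the trend and robust prior, 1 with array row, and 0 to 7 with each array left out. The cause of these shifts was not tested.

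Whether replicate numbers pair the arrays could not be settled, as the labels do not say. Deviations of same-numbered arrays correlated weakly, at -0.12 to 0.20 in granulocytes and at -0.013 to 0.059 in BES. With the replicate number as a block the counts were 4674 against 4633 in granulocytes, 318 against 414 in BES and 2 against 4 for the listed genes in BES, and no call of ADM or VEGFA changed. Not every array correlated best with its own number.

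Some changes that had not passed the threshold turned sign. In granulocytes NRP2 was 0.014 with the percentile over probes above background on all arrays and -0.049 to 0.043 with each array left out, and PFKFB3 was -0.089 to 0.295 with each array left out. In BES, FLT1 was -0.038 with normexp and PAM was 0.0059 with array row. With quantile normalization, the percentile over probes above background on all arrays and the authors' values, VEGFB was 0.038, 0.024 and 9.3e-05, and RAMP2 was 0.0089, 0.024 and 0.00027. With each array left out VEGFB was -0.026 to 0.014 and RAMP2 was -0.034 to 0.022. Probes near background, among them KDR, FLT4, CALCA and CALCR, gave no usable change.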
